A study of Canis lupus familiaris with 34 samples.

Results

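Bone morphogenetic proteins (BMPs) and activins are secreted ligands of the TGF-beta superfamily. Each binds a pair of receptor kinases that phosphorylate SMAD proteins, SMAD1, SMAD5 and SMAD9 for BMPs and SMAD2 and SMAD3 for activins, which then enter the nucleus with SMAD4. Extracellular antagonists hold the ligands away from their receptors, and the ID genes, whose products bind E proteins and keep them from DNA, are direct BMP targets in many cell types. In vessels, BMP signals act on endothelial cells and on the mural cells around them, and in bone they drive the osteoblast lineage.

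The genes examined were the ligands BMP2, BMP4, BMP6 and INHBA (the activin A subunit), the antagonists GREM1, NOG and FST, and the targets ID1, ID2 and ID3. A gene was read from probe sets of the Affymetrix Canine_2 array to which the platform annotation gives 1 gene symbol. Of the 10 genes, 8 have such a probe set, out of 15115 genes that have one in all. NOG and ID2 have no probe set of their own in the annotation used here and were not analysed. BMP2 and ID3 are each read by 2 probe sets, and the one with the higher mean over all arrays is given first.

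The arrays came from 34 dogs, 1 array per dog. Cells of some types had been grown in culture: 10 hemangiosarcoma lines and 3 hematoma cultures, all from spleen, and 5 osteosarcoma lines from bone. The other 16 arrays held primary cells of 1 acute lymphoblastic leukemia, 2 chronic lymphocytic leukemias, 6 diffuse large B cell lymphomas, 1 marginal zone B cell lymphoma and 6 T-zone lymphomas. Of the hemangiosarcoma lines, 6 were from Golden Retrievers (ChadG4, ChadG6, ChadG8, Frog, Journey and Tucker), and Joey was from a Rottweiler, DD1 from a Golden Retriever x Great Pyrenees cross, ChadP9 from a Portuguese Water Dog and Dal4 from a Dalmatian. The hematoma cultures were from a Golden Retriever (Pippin), a Standard Poodle (Baxter) and a Keeshond (Kylie). All osteosarcoma lines were from Golden Retrievers, as were the primary cells, except that the acute leukemia was from a Golden Retriever mix. The labels give no age and no treatment. Spleen tissue had been cultured in conditions that favor endothelial growth, and the earliest available passages were used. Each line comes from a different dog, but the paper states that Frog was the paternal great aunt of Journey. All values are log2 intensities made by the authors with RMA, a method that corrects background, gives all arrays the same distribution and reduces the probes of a set to 1 value. The medians of the arrays lay between 5.57 and 5.77, and a value near or below this is at the low end of the scale, where RMA compresses differences.

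The labels were set against defining markers. PECAM1 and CDH5, junction proteins of endothelium, were above their array's median on 0 of 10 hemangiosarcoma lines and 0 of 3 hematoma cultures, and VWF on 1 of 10 and 0 of 3. KDR, a receptor for VEGF, was above it on 8 of 10 hemangiosarcoma lines and on 5 of 5 osteosarcoma lines. Of 8 osteoblast markers, 1 to 4 were above the median on each osteosarcoma line and 1 or 2 on each hemangiosarcoma line and hematoma culture. RUNX2, a transcription factor of osteoblasts, was below the median on the 5 osteosarcoma lines, at 5.12 to 5.62, but above the 4.70 to 5.07 of hemangiosarcoma lines and the 4.95 to 5.05 of hematoma cultures. IBSP, another of these markers, did not separate them, at 3.17 to 3.50 in osteosarcoma and 2.96 to 3.96 in hemangiosarcoma lines. In the fit between these lines given below, 2 osteoblast markers were tested and 0 passed, with a median difference of 0.66, higher in hemangiosarcoma. The mean of 15 mural and fibroblast markers was 8.90 to 10.98 on the cultured arrays and 5.26 to 7.58 on the primary ones, whereas lymphocyte markers averaged 4.66 to 5.15 on the former and 7.73 to 10.28 on the latter. In an array of mixed cells, fewer cells of a type and less RNA per cell cannot be told apart.

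INHBA, FST, ID1 and BMP2 were high in all 3 kinds of cultured cells and low in the leukemias and lymphomas, while ID3 was high almost everywhere. INHBA was the most divided of the 8 genes. On the 18 cultured arrays it ran from 7.81 in OSCA20 through a median of 10.85 to 11.94 in Frog, and on the 16 primary arrays from 3.49 through 4.07 to 6.53 in the T-zone lymphoma Fire. Every cultured array was above every primary one. FST, whose product follistatin binds activin, was likewise divided, at 6.44 to 11.49 (median 8.21) on cultured and 4.53 to 5.51 (median 4.90) on primary arrays.

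**Figure D1:**
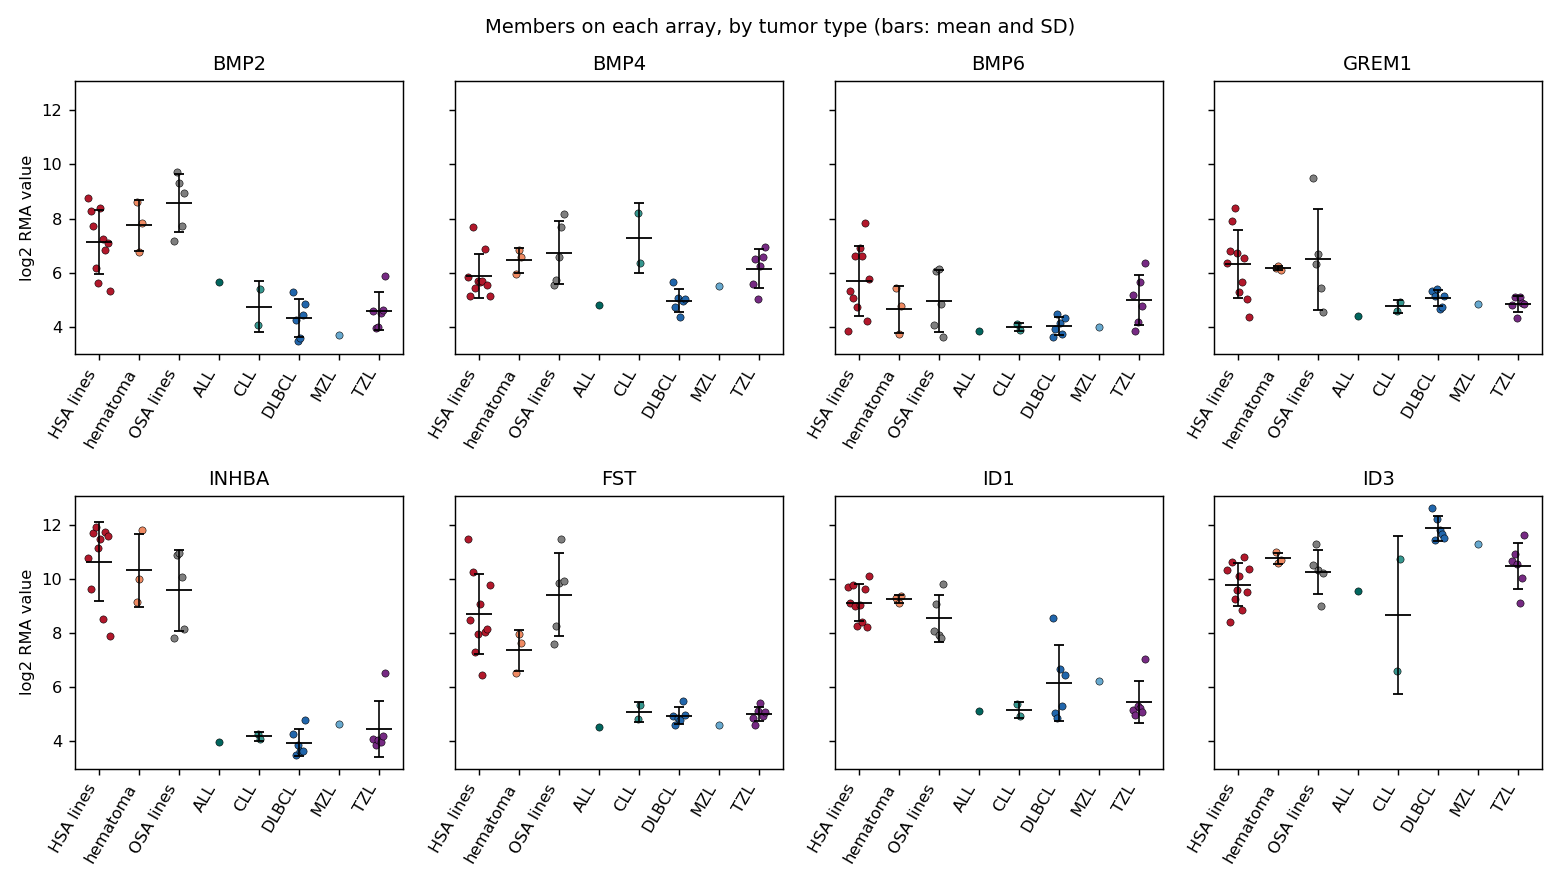
Log2 RMA value (vertical axis) of each of the 8 genes on each of the 34 arrays, by tumor type. Points are arrays and bars give the mean and SD where a type has more than 1 array. HSA is hemangiosarcoma, OSA osteosarcoma, TZL and MZL are T-zone and marginal zone lymphoma, DLBCL the diffuse large B cell type, and CLL and ALL the chronic and acute leukemias. INHBA and FST are above 6.4 on all cultured arrays, and the 6 DLBCL arrays have ID3 at 11.45 or more.

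The cultured arrays were compared with the primary ones in limma, with Benjamini-Hochberg adjustment over all probe sets that lay above the array median on at least 16 arrays and a threshold of 0.001. Of 22063 probe sets, 43.4% passed, 22.0% higher and 21.4% lower in cultured cells. Of the 8 genes 6 met the filter, and 4 of these passed, all higher in cultured cells. These 4 met the filter through the cultured arrays. INHBA, FST and ID1 were above the array median on 18 of the 18 and BMP2 on 16. The count and p values therefore describe the divide given above and are no separate support for it. The difference was 6.08 ± 0.38 (SE) for INHBA, which is 67.8-fold (adjusted p = 4.4e-16). It was 3.74 ± 0.37 for FST (13.3-fold, adjusted p = 6.0e-11). ID1, the BMP target, differed by 3.28 ± 0.29 (9.72-fold, adjusted p = 4.0e-12). BMP2 differed by 3.12 ± 0.34 by its first probe set and 2.50 ± 0.32 by the other (adjusted p = 7.1e-10 and 2.7e-08). These folds rest on primary arrays at the low end of the scale, since INHBA was above the array median on 1 of the 16, FST on 0, BMP2 on 2 and ID1 on 5. Cell lineage, culture and mural and fibroblast markers, of which 10 of the 11 tested were higher in cultured cells, change together between these groups, and their parts cannot be told apart.

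ID1 and BMP2 had single arrays out of place. ID1 was 7.81 to 10.13 on cultured arrays. Among primary arrays its highest values were 8.56 in the diffuse large B cell lymphoma Benson and 7.04 in Fire, with the lowest at 4.85 and a median of 5.27, so that 12 of the 18 cultured arrays were above all primary ones. BMP2 ran from 5.32 in Dal4 to 9.71 in OSCA23 on cultured arrays. In primary cells it was 3.47 to 5.89, highest in Fire, and 16 of 18 cultured arrays exceeded that. Dal4 and Journey, at 5.32 and 5.63, were the hemangiosarcoma lines with BMP2 in the range of the primary arrays. Without Fire and Benson the differences were 6.25 for INHBA, 3.58 for ID1 and 3.28 for BMP2, an alternative chosen after these values were seen.

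GREM1 and BMP6 lay above the median on too few arrays to be tested in that fit. GREM1, an antagonist of BMP2 and BMP4, was 4.34 to 5.38 on primary arrays and above the array median on 0 of them. In culture it ranged from 4.35 in Dal4 to 9.50 in OSCA20, and 14 of 18 cultured arrays exceeded all primary ones (permutation p = 1e-05, two-sided, unadjusted, the smallest that 100000 permutations can give). BMP6 was above the array median on 7 of 18 cultured arrays and 1 of 16 primary arrays, that of Fire. Its means were 5.31 and 4.37 (unadjusted permutation p = 0.0122).

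BMP4 and ID3 did not pass. BMP4 averaged 6.21 ± 0.92 (SD, n = 18) on cultured and 5.72 ± 1.01 (SD, n = 16) on primary arrays, a difference of 0.49 ± 0.32 (SE; adjusted p = 0.18). Its highest value of all 34 arrays, 8.19, was in the chronic lymphocytic leukemia Maddle, followed by 8.15 in OSCA71, 7.70 in OSCA75 and 7.69 in ChadG8. The other chronic leukemia, Forrest, had 6.37. ID3 was 8.43 to 11.29 in culture and 6.62 to 12.63 in primary cells, with a difference of -0.69 ± 0.38 (adjusted p = 0.11). The 6.62 was again Maddle, below the next lowest array, ChadG6 at 8.43. Its actin control read 3.02 higher at the 3′ than at the 5′ end, within the 3.02 to 4.63 of the 3 leukemias and above the -0.32 to 2.56 of cultured arrays. The part of RNA quality in these leukemia values was not tested.

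**Figure D2:**
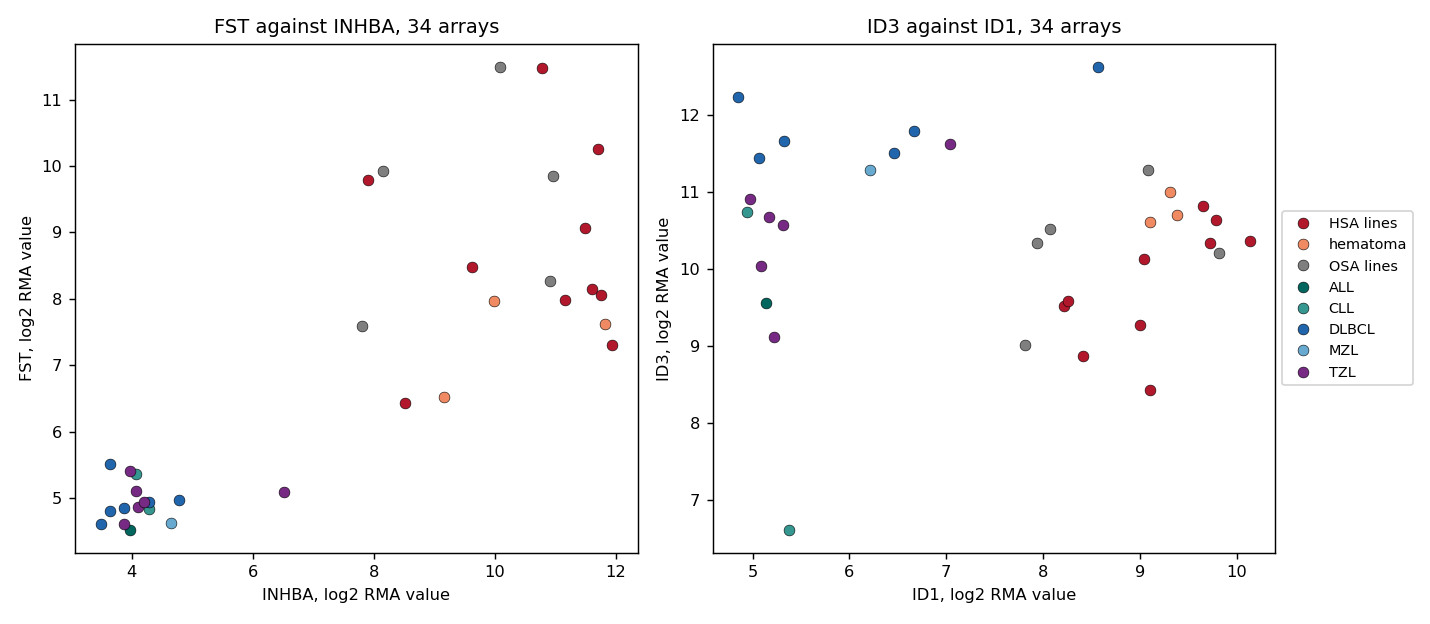
FST against INHBA (left) and ID3 against ID1 (right), both axes in log2 RMA values, each point 1 of 34 arrays and colored by tumor type with the abbreviations used above. Cultured cells lie to the right in both panels, at INHBA of 7.81 or more and ID1 of 7.81 or more, a range that Benson shares for ID1 (8.56). The 6 diffuse large B cell lymphomas lie near the top of the right panel, over an ID1 range of 4.85 to 8.56.

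ID3 was also the only one of these genes high enough to be tested by limma between the lymphomas, and it passed. In diffuse large B cell lymphoma it ran from 11.45 in Cooper through a median of 11.73 to 12.63 in Benson. In T-zone lymphoma it ran from 9.12 in Shilo through 10.63 to 11.63 in Fire. Of the 6 diffuse large B cell lymphomas, 4 were above all T-zone lymphomas by either probe set. By the first probe set all 6 were above the highest cultured array. By the other they were not, as they began at 10.51 with a median of 10.81, and OSCA23 had 11.02. The difference was 1.39 ± 0.36 (SE) by the first probe set (limma, adjusted p = 0.015, exact permutation p = 0.0065) and 1.21 ± 0.37 by the other (adjusted p = 0.036). It was 1.47 (adjusted p = 0.013) without Fire and Benson. At the threshold of 0.05 used here, 18.5% of 21763 probe sets passed, and ID3 was the 1 gene of the 8 that met the filter. The actin control's 3′ end exceeded its 5′ end by a median of 1.14 in the diffuse large B cell lymphomas and by -0.81 in the T-zone lymphomas, whose part in the difference was not tested.

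The other 7 genes lay too low in these lymphomas for the fit. BMP4 was 4.36 to 5.66 in diffuse large B cell and 5.04 to 6.95 in T-zone lymphoma, above the array median in 0 of 6 and 4 of 6 (exact permutation p = 0.0130). BMP6 was 3.60 to 4.45 and 3.83 to 6.35 (exact permutation p = 0.0411). Both p values are two-sided and unadjusted, from 8 genes examined. The means of FST, 4.95 and 5.01, differed by less than their SDs of 0.30 and 0.27. ID1 averaged 6.16 ± 1.40 and 5.47 ± 0.78 (SD, n = 6 each; exact permutation p = 0.392).

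The first question of the design was what sets hemangiosarcoma cells apart from cells of a non-malignant splenic lesion. By limma 0 of the 8 genes passed in this comparison at an adjusted p of 0.1, where 0.266% of 23292 probe sets passed. At an unadjusted p of 0.05, 1 of the 8 did, beside 2259 of the 23292 probe sets. ID3 came nearest. It was 11.01 in Pippin, 10.61 in Baxter and 10.70 in Kylie, and ran from 8.43 in ChadG6 through a median of 9.86 to 10.83 in DD1 in the hemangiosarcoma lines, of which 8 were below all 3 hematoma cultures. The difference was -0.98 ± 0.44 (SE) by the first probe set and -1.14 ± 0.50 by the other (adjusted p = 0.50 for both; exact permutation p = 0.0559 and 0.0524). With 10 and 3 arrays the smallest exact p is 0.0035. Over all probe sets the calls numbered 62, which became 7 without Baxter, 39 without ChadG6 and 200 without Pippin, and the 8 genes did not pass in any of these.

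FST was 6.52, 7.97 and 7.63 in Pippin, Baxter and Kylie, and 8 of 10 hemangiosarcoma lines were above these. The lines ran from 6.44 in Joey through 8.31 to 11.48 in ChadG4, and the difference of 1.33 ± 0.82 did not pass (adjusted p = 0.61). ID1 was nearly constant in the hematoma cultures, at 9.32, 9.11 and 9.39, inside the 8.21 to 10.13 of the lines, with a difference of -0.14 ± 0.38. GREM1 was also close together in the hematomas, at 6.17, 6.25 and 6.11, with 6 lines above and 4 below. INHBA was 9.16, 9.99 and 11.82 against 7.90 to 11.94 (median 11.33), a difference of 0.33 ± 0.86 that was -0.26 without Pippin. The differences were -0.61 ± 0.68 for BMP2, -0.58 ± 0.45 for BMP4 and 1.05 ± 0.73 for BMP6. With 3 hematoma arrays the standard errors ran from 0.38 to 0.86, so the fit does not show that these genes are at the same level in both groups.

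Set against osteosarcoma, again in culture, hemangiosarcoma lines had less BMP2 by 1 of its probe sets. In osteosarcoma it was 7.15 in OSCA20, 9.71 in OSCA23, 9.30 in OSCA59, 7.73 in OSCA75 and 8.95 in OSCA71. In hemangiosarcoma it ran from 5.32 through a median of 7.16 to 8.76, and 5 of 10 lines were below all osteosarcoma lines. The difference was -1.43 ± 0.58 by the first probe set, which missed the threshold of 0.05 (adjusted p = 0.076), and -1.65 ± 0.51 by the other, which passed (adjusted p = 0.024). The first also passed without ChadG4 (adjusted p = 0.043), without OSCA20 (0.034), with array weights (0.0098) and in a fit of all 34 arrays (0.038), but not in the other 18 alternatives. With Golden Retriever lines alone, the breed of all the osteosarcoma lines, the difference was -1.08 (adjusted p = 0.27). In this comparison 27.8% of 22857 probe sets passed, 16.1% with the hemangiosarcoma lines higher and 11.7% with them lower. By the first probe set 0 of the 8 genes did. At an unadjusted p of 0.05, 1 of the 8 did, beside 9126 of the 22857 probe sets.

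For INHBA, BMP6, GREM1, FST, ID1 and ID3 the difference was smaller than the SD within either sarcoma. INHBA was 7.81 in OSCA20, 10.91 in OSCA23, 10.97 in OSCA59, 10.09 in OSCA75 and 8.16 in OSCA71, and 6 of 10 hemangiosarcoma lines exceeded all of these (difference 1.06 ± 0.74, adjusted p = 0.30). FST was highest in OSCA75 (11.49) and ChadG4 (11.48), and the groups differed by -0.72 ± 0.75. ID1 and ID3 differed by 0.59 ± 0.38 and -0.48 ± 0.40, BMP6 by 0.75 ± 0.62 and BMP4 by -0.87 ± 0.47. GREM1 was 9.50 in OSCA20 and 4.54 to 6.68 in the other osteosarcoma lines, and its difference of -0.19 ± 0.74 was 0.56 without OSCA20 and 0.03 without Dal4. The hybridization controls, RNAs of known amount added to each sample, averaged 8.95 to 9.54 in hemangiosarcoma and 9.66 to 10.57 in osteosarcoma lines, with no overlap, and the actin control's 3′ end exceeded its 5′ end by 0.62 to 1.90 and 1.10 to 2.56. Their part in the differences between these types was not tested.

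**Figure D3:**
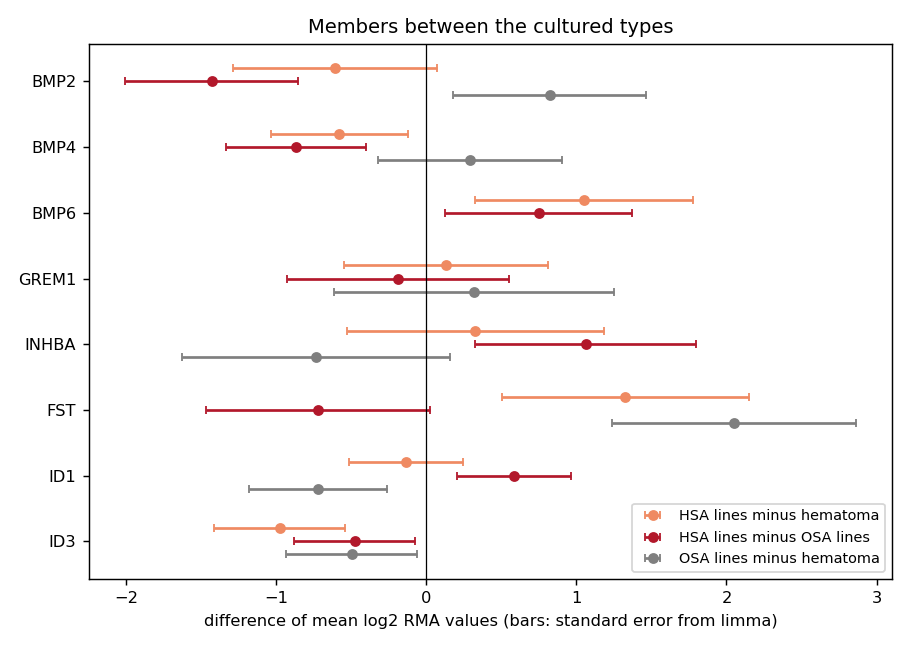
Difference of mean log2 RMA values (horizontal axis) between each pair of cultured types for the genes tested, with the standard error from limma as bars. BMP6 was not tested between osteosarcoma and hematoma. The points farthest from 0 are FST in osteosarcoma minus hematoma (2.05) and BMP2 in hemangiosarcoma minus osteosarcoma (-1.43).

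Osteosarcoma lines were also set against the 3 hematoma cultures, at a threshold of 0.1. Of 23062 probe sets, 13.3% passed, 5.20% higher and 8.12% lower in osteosarcoma, and 0 of 7 genes tested did. At an unadjusted p of 0.05, 1 of the 7 did, beside 6098 of the 23062 probe sets. FST was higher in 4 of 5 osteosarcoma lines than in any hematoma culture, by 2.05 ± 0.81 on average (adjusted p = 0.15, exact permutation p = 0.0714, with 0.0179 the smallest possible). It passed without OSCA20 (2.51, adjusted p = 0.059) and in a fit of all 34 arrays (adjusted p = 0.064), but not in the other 11 alternatives. ID1 was lower in 4 of 5 osteosarcoma lines than in any hematoma culture, by -0.72 ± 0.46 on average, and passed only without OSCA71 (-1.04, adjusted p = 0.093). The calls rest on few arrays, as their number over all probe sets was 3073 with all and 219 without Kylie. This comparison shares its osteosarcoma arrays with the one above and its hematoma arrays with the one before.

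The study also compared Golden Retriever hemangiosarcoma lines with all other tumors, here 5 osteosarcoma and 16 leukemia and lymphoma arrays, at a threshold of 0.001. INHBA was 9.62 to 11.94 in the 6 lines and passed, at 5.62 ± 1.01 above the other tumors (49.3-fold, adjusted p = 0.00018). It was the 1 of 7 genes tested that did, where 7.87% of 25266 probe sets passed. ID1 (2.77 ± 0.63, adjusted p = 0.0016), FST (3.08 ± 0.88, adjusted p = 0.0080), GREM1 (1.64 ± 0.50, adjusted p = 0.012) and BMP2 (2.01 ± 0.81, adjusted p = 0.051) did not. Without the osteosarcoma arrays ID1, FST and BMP2 passed, at 3.44, 4.15 and 2.97. INHBA was higher in 4 of the 6 lines than in all the other tumors. Among those it was 7.81 to 10.97 in the 5 osteosarcoma lines and 3.49 to 6.53 on the 16 primary arrays. The 49.3-fold thus rests largely on cultured against primary cells. The 6 lines were all above every array median and alone met the filter for INHBA, so its p value is no separate support for this divide. All 10 hemangiosarcoma lines against osteosarcoma alone did not pass for INHBA (1.06, limma, adjusted p = 0.30).

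Among the 10 hemangiosarcoma lines the genes differed in spread. The range was widest for FST, at 5.03 log2 units, and about 4 for GREM1 (4.04), INHBA (4.03) and BMP6 (3.98). It was 1.92 for ID1, from 8.21 in ChadP9 to 10.13 in Dal4. Dal4 combined this with the lowest INHBA, GREM1 and BMP2 of the lines, at 7.90, 4.35 and 5.32. ChadG4 had the highest FST and BMP2 (8.76) and the lowest BMP6 (3.84 against 7.83 in DD1). The 4 lines of other breeds overlapped the Golden Retriever lines in all 8 genes.

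Of the 28 pairs of these genes, 0 were correlated across the 10 lines at an adjusted p of 0.05 by permutation, and 3 by Pearson's r at an unadjusted p of 0.05. The lowest p was for FST and ID1, with Pearson's r = 0.695 (permutation p = 0.0245, adjusted p = 0.416) and Spearman's rho = 0.721 (permutation p = 0.0220, adjusted p = 0.505). Without ChadG8 and ChadG4, the lines farthest from the median of FST, r was 0.619 (permutation p = 0.0961). ID1 and ID3 had r = 0.649 (permutation p = 0.0446, adjusted p = 0.416). Both probe sets of ID3 tracked each other over 34 arrays (r = 0.98), as did those of BMP2 (r = 0.975).

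Over the 34 arrays, the genes most like each member were listed from 11279 genes by Pearson's r, as a description. The arrays share their tumor types, so r was also taken on deviations from the type means. INHBA was most like MPDZ, a scaffold protein, and CCN2, a secreted matricellular protein (r = 0.957 and 0.956), which fell to 0.507 and 0.622 on the deviations. GREM1 kept its likeness, with 0.791 and 0.802 for the growth factor receptor FGFR1 and 0.790 and 0.759 for the Wnt antagonist DKK1. BMP2 was most like LDOC1 and FAM13C (0.915 and 0.902), FST like COX7A1 and CRYAB (0.901 for both), and ID1 like TMEM47 and BCAR1 (0.915 and 0.903). On the deviations these were 0.598 and 0.534 for BMP2, 0.609 and 0.509 for FST, and 0.431 and 0.351 for ID1. For BMP4 (BCL9L and CHST12), BMP6 (ARVCF and DHRS3) and ID3 (USP13 and HMGN1) the highest r was 0.712, 0.640 and 0.689. Their r on the deviations were 0.440 and 0.430, 0.508 and 0.602, and 0.576 and 0.383. DHRS3 with BMP6 thus fell little, from 0.624.

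The rest of the pathway was read from 7 lists of ligands, antagonists, receptors, SMADs with their regulators, targets and E proteins, with the members left out. Of their 98 genes, 81 have a probe set. Between cultured and primary arrays 32 were tested, of which 14 were higher and 3 lower in culture, beside 22.0% and 21.4% of all probe sets tested, and their median difference was 0.55 against -0.06 over all probe sets tested. Of 8 secreted antagonists and modulators tested, FST included, 5 were higher and 1 lower. FSTL1, a follistatin-like glycoprotein, was 10.45 to 12.96 in culture and 3.97 to 7.33 in primary cells (6.79 ± 0.24, adjusted p = 1.1e-23). ACVR1, a type I receptor for BMPs and activins, was 7.91 to 10.91 and 2.87 to 7.32 (5.91 ± 0.35). CHRDL1, which binds BMPs, and BMP1, a proteinase that cleaves the antagonist chordin, were higher by 4.41 and 4.05. On cultured arrays FSTL1, ACVR1 and BMP1 were above every array median, so these arrays alone met the filter. CHRDL1 was 3.27 to 4.66 on primary arrays, below every array median, and met it through the cultured ones. The p values of these genes and their part in the count and median describe the divide and are no separate support for it. The genes that were lower were GATA3 (-2.53), TCF3 (-1.14), an E protein, and CHRDL2 (-0.90).

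Between hemangiosarcoma and osteosarcoma lines, 10 of 40 pathway genes were higher and 9 lower in hemangiosarcoma, beside 16.1% and 11.7% of all probe sets tested, with a median difference of -0.05 against 0.03 over all probe sets tested. DLX5, a homeobox gene of the osteoblast lineage, was 7.07 in OSCA20, 8.16 in OSCA23, 7.86 in OSCA59, 7.39 in OSCA75 and 7.03 in OSCA71, and 3.84 to 5.20 in all 10 hemangiosarcoma lines (-2.88 ± 0.24, adjusted p = 2.4e-06). All hemangiosarcoma lines were below the lowest array median, 5.57, so DLX5 met the filter through the osteosarcoma arrays. Its p value therefore describes this divide and is no separate support for it. MSX2, another homeobox target of BMPs, was 7.20 to 8.33 in osteosarcoma and 4.19 to 7.18 in hemangiosarcoma (-2.01 ± 0.45, adjusted p = 0.0042). TWIST1, a bHLH factor, was lower by -1.49 ± 0.31. ID1 and ID3, which are also listed among the targets, did not pass where DLX5 and MSX2 did, and the difference between these targets was not tested.

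ENG, endoglin, a co-receptor for BMP and TGF-beta ligands on endothelium, was 7.38 to 8.54 in the 5 osteosarcoma lines. It was 4.10 to 5.44 in 9 hemangiosarcoma lines and 7.27 in ChadP9 (-3.41 ± 0.44, adjusted p = 0.00012). Those 9 lines were below every array median, so ENG met the filter through the osteosarcoma arrays and ChadP9. The p value of ENG is thus no separate support for the divide. Among hematoma cultures it was 4.18 in Pippin, 7.77 in Baxter and 7.83 in Kylie. Higher in hemangiosarcoma were TWSG1, which binds BMPs (1.87 ± 0.38), PMEPA1 (1.45 ± 0.37) and SKIL (1.30 ± 0.35), both inhibitors of SMAD signaling, and SMAD5 (1.26 ± 0.27). Of the 13 SMADs and regulators tested, 6 were higher and 0 lower, where 16.1% of all probe sets were higher and 11.7% lower.

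**Figure D4:**
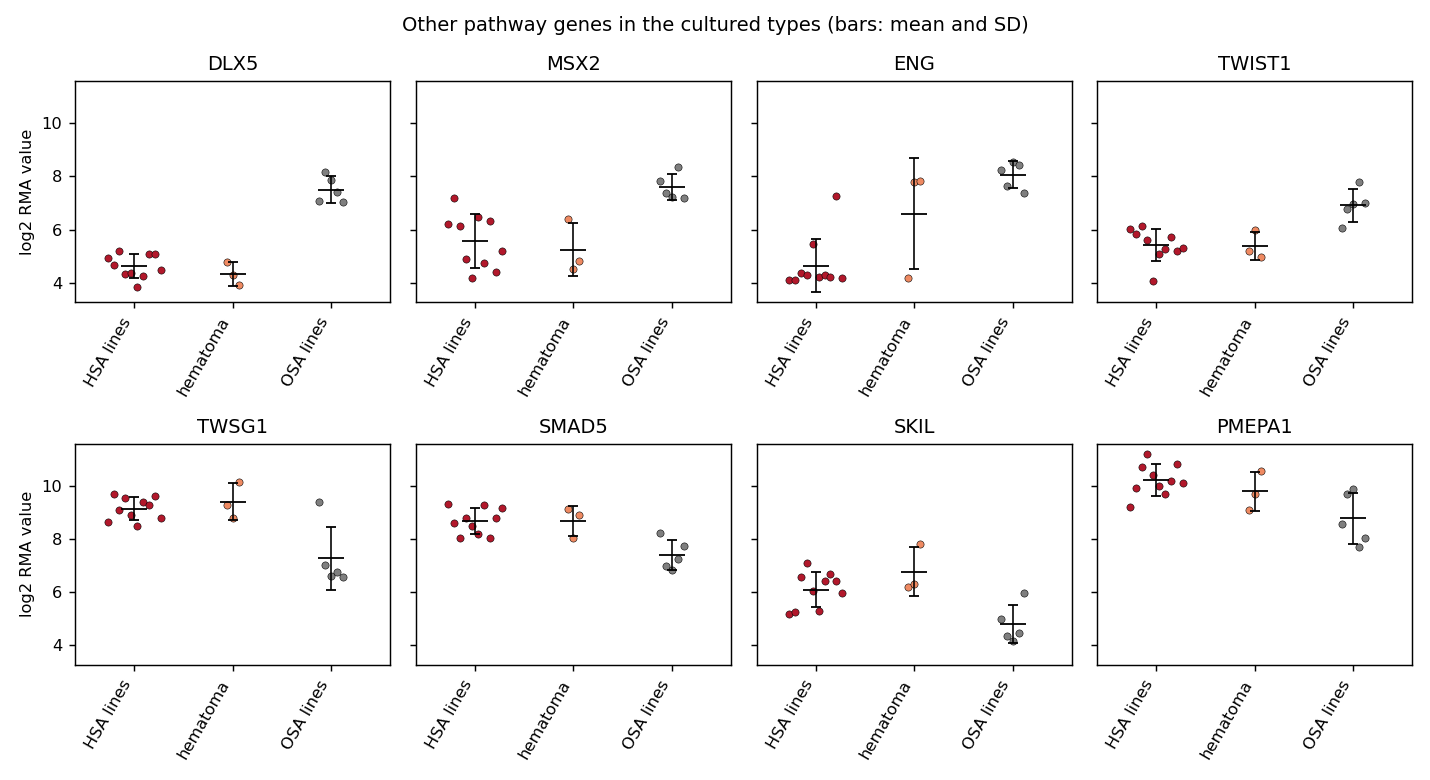
Log2 RMA value (vertical axis) of 8 other pathway genes on each cultured array, by type, with the mean and SD as bars (HSA, hemangiosarcoma; OSA, osteosarcoma). DLX5, MSX2 and ENG are higher on all 5 osteosarcoma arrays than on any of the 10 hemangiosarcoma arrays, and 1 hematoma culture has ENG at 4.18 while the others are near 7.8.

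The same osteosarcoma arrays set against the hematoma cultures gave 6 genes higher and 8 lower of 42, beside 5.20% and 8.12% of all probe sets tested, with a median difference of 0.09 against 0.01 over all probe sets tested. DLX5, MSX2 and TWIST1 were higher, by 3.18, 2.34 and 1.54 (adjusted p = 0.0061, 0.034 and 0.057), with no overlap between the groups. In the hematoma cultures DLX5 was 3.90 to 4.79, below every array median, so it again met the filter through the osteosarcoma arrays. Its p value here is no separate support for the difference. TGFBR3, a co-receptor also known as betaglycan, was higher by 2.93 (adjusted p = 0.097), with overlap between the groups. CHRDL1, TWSG1, SKIL and SMURF2, a ubiquitin ligase for SMADs and their receptors, were lower, by -2.76, -2.13, -1.98 and -1.50. Their adjusted p values by limma were 0.088, 0.087, 0.057 and 0.096, and the groups overlapped for TWSG1. Of the 13 SMADs and regulators, 0 were higher and 5 lower. The actin control's 3′ end exceeded its 5′ end by 1.10 to 2.56 on the osteosarcoma and by -0.32 to 0.98 on the hematoma arrays, without overlap, and the part of this in these differences was not tested. Between hemangiosarcoma lines and hematoma cultures 0 of 40 pathway genes passed by limma, and their median difference was -0.03. At an unadjusted p of 0.05, 6 of the 40 did, beside 2259 of all 23292 probe sets tested.

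Between the lymphomas, diffuse large B cell lymphoma exceeded T-zone lymphoma in the E protein TCF4, by 1.57 ± 0.36, and in SMURF2, by 0.87 ± 0.18, with no overlap between the groups. It was lower in GATA3, a T cell factor as well as a BMP target (-3.07 ± 0.44), and in TGFBR3 (-1.89 ± 0.45). These were the 4 of 25 genes tested that passed, a share near the 18.5% of all probe sets tested. In Golden Retriever hemangiosarcoma lines 8 of 40 passed against the other tumors, where 7.87% of all probe sets did. Of these 7 were higher, with the largest differences in FSTL1 (5.33), ACVR1 (4.94), CHRDL1 (3.37) and TWSG1 (2.80), and CHRDL2 was lower (-0.97). FSTL1, ACVR1, CHRDL1 and TWSG1 averaged 12.33, 10.46, 8.02 and 9.06 in these lines. In the osteosarcoma lines they averaged 11.83, 9.51, 7.35 and 7.28. On the primary arrays FSTL1, ACVR1 and CHRDL1 averaged 5.48, 4.27 and 3.81. The Golden Retriever lines were all above every array median in FSTL1, ACVR1, CHRDL1 and TWSG1 and alone met the filter. That these genes passed is therefore no separate support for the differences.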

How the data were processed

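RNA from 34 canine samples had been hybridized to Affymetrix Canine_2 arrays. The authors deposited log2 values from RMA (affy package), with versions not given in the sources used here. No further normalization was applied. Of 43035 probe sets, 175 controls were left out. Symbols came from the platform annotation: 29254 probe sets have 1 symbol, 439 several and 13167 none. Probe sets entered a test when they exceeded the array median on a number of arrays no smaller than the smaller group.

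Groups came from the labels. Comparisons were made with limma 3.58.1 in R 4.3.3 and Benjamini-Hochberg adjustment over all probe sets tested, at the thresholds given with each result, and the fit was tested on simulated data. Single genes were also tested by two-sided permutation of the difference of means over arrays. A gene with more than 1 probe set was read from that of highest mean on the 34 arrays. The text names the members, the other pathway genes with up to 4 of the largest differences per direction among those that passed, and the 2 genes most like each member. A few values of other genes are markers. Members, lists and tests were chosen with earlier results of these data known.

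Alternatives were no filter, a trend with robust prior, centered arrays, array weights, 1 fit of all arrays, other probe sets, subsets by breed or type, equal weights for the types, and leaving out single arrays. The sample that had been run on 2 chips could not be told from the labels. The number of arrays limits the precision. Each array stands for 1 dog, and the table has no detection calls. Figures were drawn with matplotlib 3.10.9.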

Additional observations from a re-analysis of the deposited data

Results flagged for a closer look

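Within a tumor type, 4 of 40 sets of 4 or more arrays had a sample whose gap to its nearest neighbor exceeded Dixon's 95% critical value, 0.625 of the group's range for 6 arrays. Chance flags about 1 in 20 such groups. The T-zone lymphoma Fire accounted for 3 of them. Its INHBA of 6.53 was followed by 4.21 (gap over range 0.873), its ID1 of 7.04 by 5.31 (0.837) and its BMP2 of 5.89 by 4.61 (0.655). The other was BMP2 by its second probe set in the diffuse large B cell lymphoma Benson, at 5.22 with the next array at 4.34 (0.690). Fire had the lowest means of lymphocyte (9.27) and myeloid markers (6.09) among the T-zone lymphomas, and its mural and fibroblast markers averaged 6.27, between the 6.64 of Shilo and the 5.44 to 6.16 of the others. Its actin control read 2.51 higher at the 3′ than at the 5′ end, as against 3.11 in Thunder and -1.05 to -0.79 in the other T-zone lymphomas. Benson had the highest hybridization control signal of all 34 arrays, 11.12. The part of these in the values was not tested.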

How the results depend on the processing

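Of 37 gene results over 562 alternative values, 529 kept their direction and side of the threshold, 19 newly passed, 0 lost a call and 14 changed sign, none of these at an adjusted p past the threshold. The number of probe sets called moved as follows. Hemangiosarcoma against hematoma gave 62, 33 with array weights, 181 in 1 fit of all arrays and 7 to 200 when single arrays were left out (7 without Baxter, 39 without ChadG6, 200 without Pippin). Golden Retriever lines against other tumors gave 1988, and 10272, 7343, 1247, 6397 and 5771 with array weights, 1 fit, without ChadG4 and Dal4, without osteosarcoma and with all 10 lines. Hemangiosarcoma against osteosarcoma gave 6365, and 3619 with Golden Retriever lines alone. Osteosarcoma against hematoma gave 3073, 6494 with array weights, 5217 in 1 fit and 219 (without Kylie) to 4700 (without OSCA20) without single arrays, of which those without Pippin, Baxter, OSCA23, OSCA59 or OSCA75 gave 1561, 553, 1296, 1326 and 1495. Signs changed in differences that had not passed. GREM1 in hemangiosarcoma minus osteosarcoma (-0.19) became 0.16 with array weights, 0.052 without ChadG4 and Dal4 and 0.42 with Golden Retriever lines alone, and ranged from -0.68 to 0.56 without single arrays (positive without Dal4 or OSCA20). In hemangiosarcoma minus hematoma, GREM1 ranged from -0.10 to 0.35 (negative without ChadG8 or Frog) and INHBA from -0.26 (without Pippin) to 1.07. In osteosarcoma minus hematoma, GREM1 ranged from -0.43 (without OSCA20) to 0.81, BMP4 from -0.064 (without OSCA71) to 0.59 and INHBA from -1.32 to 0.012 (without Kylie), and array weights gave -0.19 for BMP4 and 0.25 for INHBA. BMP4 in Golden Retriever lines minus other tumors became 0.18 without osteosarcoma. The cause was not tested. Counts for cultured against primary cells (8504 to 14287) and between the lymphomas (2978 to 5919) stayed within 1.5 times of 9565 and 4018. The number of correlated pairs was 0 in the alternatives. No paired analysis was possible because each array is from a different dog.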
